A study of Mus musculus with 12 samples.

Results

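The hypertonic response of each gene was compared between mpkCCD cells with and without the transcription factor NFAT5. The mpkCCD cells are a mouse line of the cortical collecting duct, the tubule segment that sets the final salt and water content of urine. Control cells (Scr) had been transduced with a scramble guide RNA that targets no gene, and Nfat5-KO cells were 2 clones (N1 and N3) in which Nfat5 had been deleted with CRISPR/Cas9. Both were kept for 5 days at 300 mosmol/kg (isotonic) or in medium brought to 600 mosmol/kg (hypertonic) with 100 mM NaCl and 100 mM urea, which gave 2 libraries each for Scr_300 and Scr_600 and 4 libraries each for Nfat5-KO_300 and Nfat5-KO_600. The response of a gene is the log2 ratio of its level at 600 to its level at 300 mosmol/kg, taken on FPKM (fragments scaled to the exon length of the gene and to the mapped reads) plus a pseudocount of 0.1, which understates the change of low genes. The difference is the response in Nfat5-KO cells minus the response in Scr cells. Of 52015 genes, 13414 reached 0.5 FPKM in any of the 4 groups, and 944 of these (7.04%) had a difference at or beyond 1 in either direction. These 944 genes are described here.

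NFAT5, also called TonEBP, is activated by hypertonicity and binds tonicity-responsive elements in the DNA. It is known for driving genes that let kidney cells take up or make organic osmolytes, small solutes that replace salt inside the cell, and for heat shock proteins of the HSP70 family. Cells of the renal medulla, where urine is concentrated, live in such a hypertonic environment.

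The deposited table gives 1 FPKM value per gene for each group and none per library. All differences below are therefore a description without a replicate check, SD or p-value, the members of the gene set were chosen by these same values, and what differs between the clones cannot be told apart from what they share. All knockout libraries come from the 2 clones, so loss of NFAT5 cannot be told apart here from changes that arose in the clones without it. The paper names such clonal changes as a limit of its design. In RNA of whole cultures, fewer cells that express a gene and less RNA of it per cell cannot be told apart. FPKM multiplied by the exon length of each gene fell on multiples of a smallest step, which, if a group value is the mean of its libraries, corresponds to about 30800000 to 37100000 reads per library in the 4 groups. The approximate reads of a gene given below are then totals over the libraries of a group, 2 in each Scr and 4 in each Nfat5-KO group. The epithelial markers Epcam, Cdh1 and the simple keratins Krt7, Krt8, Krt18 and Krt19 were high in every group (summed level 1098 to 1807 FPKM). Of 13 principal cell markers, 7 were under 0.5 FPKM in every group, including Aqp2 and Avpr2, and all markers of fibroblasts, endothelium, thick ascending limb and distal convoluted tubule were under 0.5 FPKM. Markers of other types at or above 0.5 FPKM in a group were Aqp1 and Lrp2 of 6 for proximal tubule, Aqp6 and Atp6v1b1 of 7 for intercalated cells and Cd68 of 4 for immune cells. The summed levels of the proximal tubule markers in Scr_300, Scr_600, Nfat5-KO_300 and Nfat5-KO_600 were 23.7, 318, 1.02 and 4.75 FPKM. Those of the intercalated cell markers were 1.18, 1.72, 0.60 and 4.21 FPKM. Of these, Aqp6 had 0.139, 1.08, 0.101 and 3.53 FPKM, while Atp6v1b1 went the other way with 0.973, 0.542, 0.438 and 0.149 FPKM. Foxi1 and Atp6v0d2 were listed at 0 in every group. Aqp1 made up nearly all of the proximal tubule sum in Scr cells. In Nfat5-KO_300 and Nfat5-KO_600, Aqp1 had 0.653 and 3.51 FPKM and Lrp2 had 0.168 and 1.07 FPKM. Nfat5 itself had 5.61 FPKM in Scr_300, 7.93 in Scr_600, 3.47 in Nfat5-KO_300 and 6.88 in Nfat5-KO_600. Its difference of response was 0.48, and since a CRISPR deletion can leave the transcript in place, its RNA level does not check the labels.

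The response in Nfat5-KO cells was lower by at least 1 on the log2 scale for 424 genes (3.16% of those tested) and higher by at least 1 for 520 genes (3.88%). Across all genes tested the median difference was -0.01 with an SD of 0.58. Each gene was put into a class by whether its level changed at least 2-fold in Scr cells, in Nfat5-KO cells, in both or in neither. Among the 424 genes, 162 were induced 2-fold in Scr cells only (induction lost), 43 were induced in both but less in Nfat5-KO cells (induction weaker), 113 were at least 2-fold lower at 600 mosmol/kg in Nfat5-KO cells only (repression gained), 12 were repressed in both and more strongly in Nfat5-KO cells, 8 were induced in Scr and repressed in Nfat5-KO cells, and 86 did not reach 2-fold in either. Among the 520 genes, 90 were repressed in Scr cells only (repression lost), 14 were repressed less in Nfat5-KO cells, 20 were repressed in Scr and induced in Nfat5-KO cells, 245 were induced in Nfat5-KO cells only (induction gained), 27 were induced in both and more strongly in Nfat5-KO cells, and 124 did not reach 2-fold in either. The most frequent class at this pseudocount was thus an induction seen in Nfat5-KO cells alone. With a pseudocount of 1 FPKM it held 48 genes, fewer than induction lost with 68, and 165 genes had a lower and 139 a higher response. At the pseudocount of 0.1, the median response of the 245 genes with induction gained was 0 in Scr and 1.47 in Nfat5-KO cells, whereas that of the 162 genes with induction lost was 1.89 in Scr and 0.20 in Nfat5-KO cells.

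**Figure D1:**
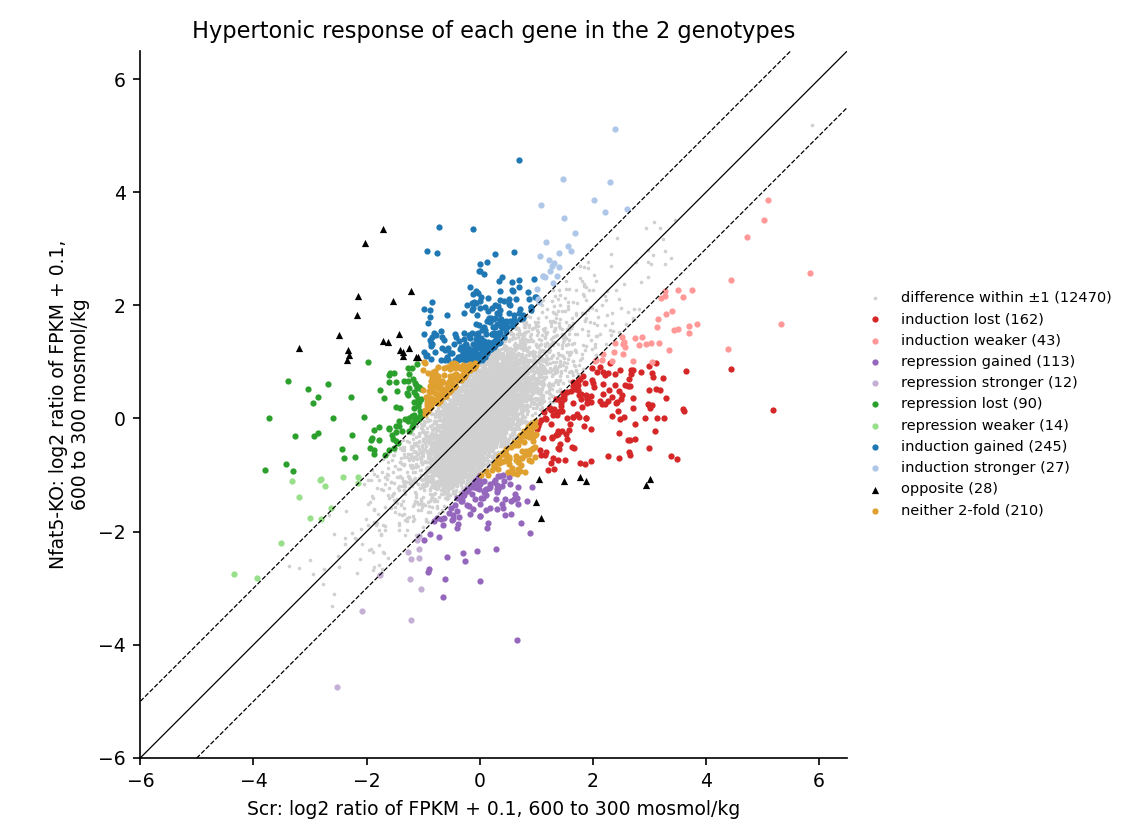
Each point is a gene tested, with its hypertonic response (log2 ratio of FPKM + 0.1, 600 to 300 mosmol/kg) in Scr cells on the horizontal and in Nfat5-KO cells on the vertical axis, coloured by class with the number of genes. The solid line marks equal responses and the dashed lines a difference of 1, below which lie the 424 and above which lie the 520 genes described.

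Seen from the responses, 659 genes (4.91% of those tested) were raised 2-fold by hypertonicity in Scr cells. Of these, 213 (32.3%) had a response lower by at least 1 in Nfat5-KO cells, and the 27 genes induced more strongly there also belonged to the 944. The remaining genes raised in Scr cells had a difference within 1, and the median response of all 659 in Nfat5-KO cells was 0.99. Of the 401 genes lowered 2-fold in Scr cells (2.99%), 124 (30.9%) had a response higher by at least 1 in Nfat5-KO cells. The 12 genes repressed more strongly there also belonged to the 944. In Nfat5-KO cells 865 genes were raised 2-fold (6.45%). Of these, 292 had a response higher by at least 1 than in Scr cells, and the 43 genes induced less than in Scr cells also belonged to the set. Of the 561 genes lowered 2-fold in Nfat5-KO cells (4.18%), 133 had a response lower by at least 1. The 14 genes repressed less than in Scr cells belonged to the set as well. The level at which the genotypes were apart is given as a description, since the members were chosen on the same 4 values. Of the 424 genes with a lower response, 201 (47.4%) were at least 2-fold apart between Nfat5-KO and Scr cells at 600 but not at 300 mosmol/kg, and 67 (15.8%) at 300 mosmol/kg only. Of the 520 genes with a higher response these numbers were 208 (40.0%) and 113 (21.7%), and of all genes tested 5.44% were apart at 600 only and 2.39% at 300 mosmol/kg only. For part of the genes, a difference of response thus came with a different level under isotonic conditions.

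The genes of organic osmolyte accumulation did not share a direction. Of 15 tested, 2 had a lower and 1 a higher response in Nfat5-KO cells, and the median difference was 0.05, against -0.01 over all genes. Over all genes tested, 3.16% had a lower and 3.88% a higher response, the shares to set beside this and the later lists. Slc6a12, on chromosome 6 (chr6:121343076-121365775), encodes the betaine transporter BGT1. It had 0.0051 FPKM in Scr_300 and 2.10 in Scr_600, was listed at 0 in Nfat5-KO_300 and had 0.135 in Nfat5-KO_600, a difference of -3.15. Akr1b3, on chr6:34302434-34317478, encodes aldose reductase, which makes sorbitol from glucose. Its level went from 23.8 to 175 FPKM in Scr cells (7.35-fold) and from 14.5 to 39.2 FPKM in Nfat5-KO cells (2.71-fold), a difference of -1.44. Both genes thus kept an induction in Nfat5-KO cells, but a weaker one. Sord, whose product sorbitol dehydrogenase turns sorbitol into fructose, moved the other way, from 1.39 to 0.485 FPKM in Scr and from 0.67 to 1.56 FPKM in Nfat5-KO cells, a difference of 2.46. The myo-inositol transporter Slc5a3 (-0.84) and the taurine transporter Slc6a6 (0.50) stayed under the threshold.

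The plot of member levels shows these shapes side by side for genes of the main classes, each drawn from 300 to 600 mosmol/kg.

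**Figure D2:**
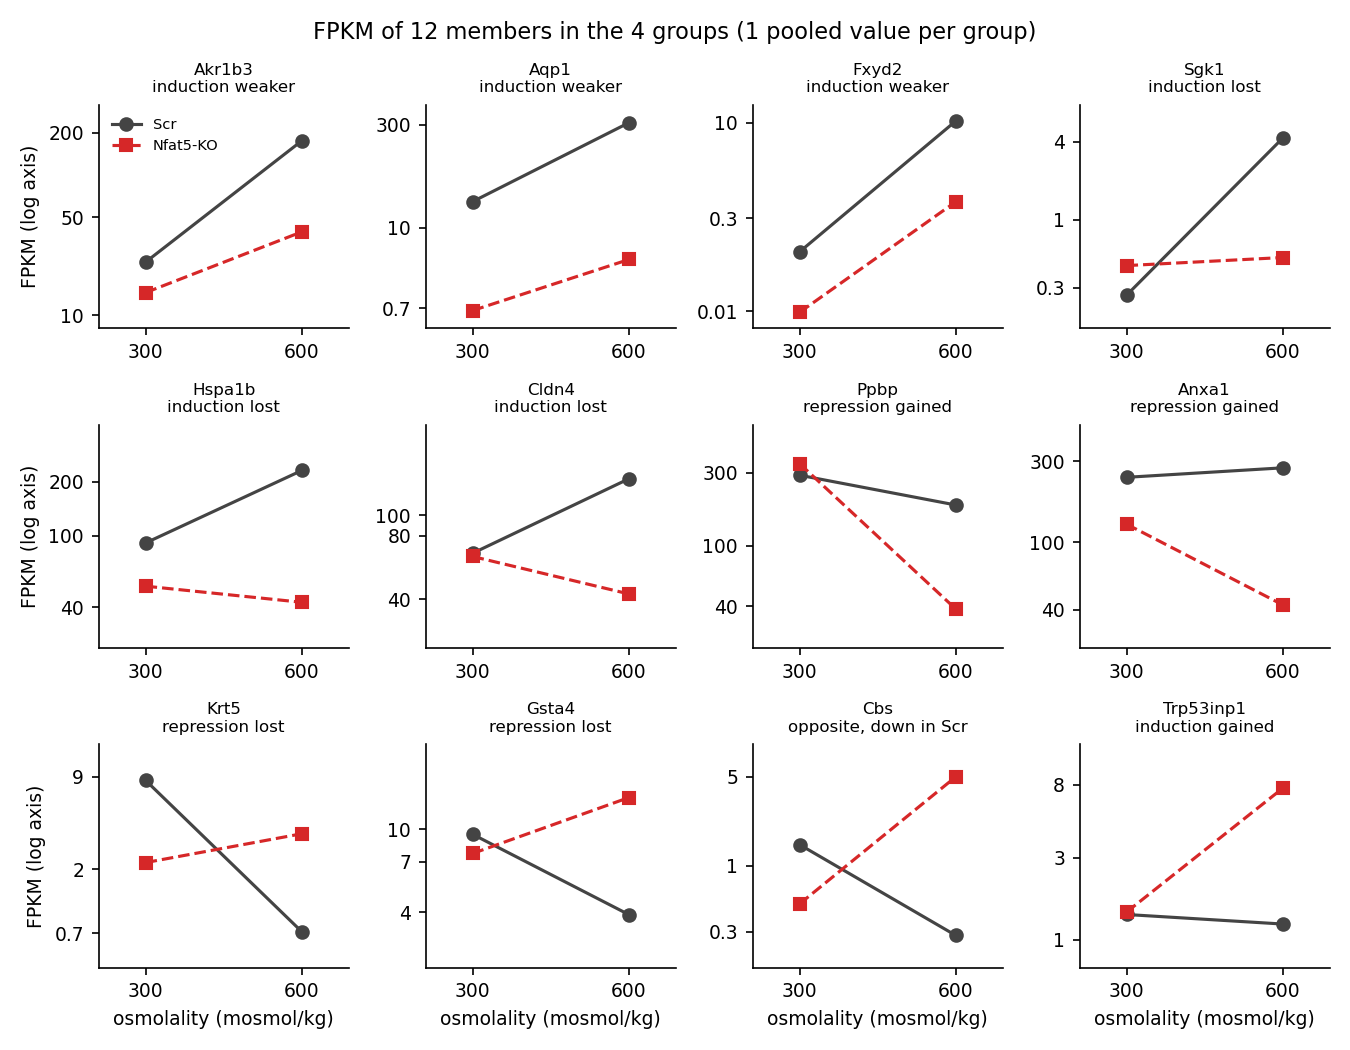
FPKM (log axis, separate for each panel) of 12 members at 300 and 600 mosmol/kg, with circles and solid lines for Scr and squares and dashed lines for Nfat5-KO cells, 1 pooled value per group. Akr1b3, Aqp1 and Fxyd2 climb less in Nfat5-KO cells, Sgk1, Hspa1b and Cldn4 climb in Scr cells only, Ppbp and Anxa1 fall at least 2-fold in Nfat5-KO cells only, and Krt5, Gsta4 and Cbs fall in Scr but not in Nfat5-KO cells, in which Trp53inp1 climbs from 1.45 to 7.66 FPKM.

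Since NFAT5 binds to DNA, the promoters of the members were searched for the tonicity-responsive element, for its core TGGAAA and for the heat shock element, on both strands, in the RefSeq window of 250 bases before to 50 bases after the start site (GRCm38.p6). A promoter was matched for 417 of the 944 genes. The tonicity-responsive element was found in 8 of 81 promoters (9.88%) of genes with induction lost or weaker, in 16 of 174 (9.20%) of all genes with a lower response and in 12 of 243 (4.94%) of those with a higher response, compared to 4.40% of the 9042 promoters of genes tested and 5.74% of all promoters. The core TGGAAA, which lies within the element, was found in 33.3%, 29.3% and 17.7% of these promoters, compared to 19.0% of those tested and 23.9% of all. No heat shock element was found in the 174 promoters of genes with a lower response, and 0.54% of the promoters tested held it. These matches are descriptions of sequence and were not tested for binding. Of the promoters with the element, 3 are shown because their genes, a transporter, a stress-induced chromatin protein and an estrogen receptor of the membrane, were induced by hypertonicity in Scr cells and less in Nfat5-KO cells. The letters are 5′ to 3′ in the direction of the gene, and capitals mark the element.
Slc6a12, chr6:121342324-121342623, plus strand: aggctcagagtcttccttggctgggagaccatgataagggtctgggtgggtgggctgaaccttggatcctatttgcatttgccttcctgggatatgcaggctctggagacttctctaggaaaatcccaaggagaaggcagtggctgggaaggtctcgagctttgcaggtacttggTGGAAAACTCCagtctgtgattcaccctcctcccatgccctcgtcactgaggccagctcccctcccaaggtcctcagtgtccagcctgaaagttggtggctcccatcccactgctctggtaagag
Nupr1, chr7:126625421-126625720, minus strand: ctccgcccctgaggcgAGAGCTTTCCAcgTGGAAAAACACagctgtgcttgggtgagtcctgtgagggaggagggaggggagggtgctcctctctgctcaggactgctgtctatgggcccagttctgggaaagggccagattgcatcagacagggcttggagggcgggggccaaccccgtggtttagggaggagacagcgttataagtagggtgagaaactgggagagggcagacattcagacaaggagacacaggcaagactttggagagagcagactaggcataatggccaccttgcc
Gper1, chr5:139422929-139423228, plus strand: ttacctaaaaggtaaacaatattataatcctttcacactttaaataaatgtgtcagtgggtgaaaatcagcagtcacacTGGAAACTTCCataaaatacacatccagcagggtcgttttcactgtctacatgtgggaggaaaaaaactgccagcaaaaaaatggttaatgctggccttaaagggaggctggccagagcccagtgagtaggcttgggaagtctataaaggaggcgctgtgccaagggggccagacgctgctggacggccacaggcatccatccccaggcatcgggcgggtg

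The element of Slc6a12 starts 75 bases before the start site. Nupr1 holds 2 elements, on opposite strands and 234 and 221 bases before the start site. Its level went from 8.98 to 58.2 FPKM in Scr cells and from 1.47 to 2.73 FPKM in Nfat5-KO cells, a difference of -1.83. Gper1 had 0.0952, 2.44, 0.674 and 2.10 FPKM in Scr_300, Scr_600, Nfat5-KO_300 and Nfat5-KO_600, so that both genotypes reached a similar level at 600 mosmol/kg and the difference of -2.19 came with a higher isotonic level in Nfat5-KO cells. With a pseudocount of 1 FPKM the difference of Gper1 was -0.76.

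Of 13 tested HSP70 and HSP110 chaperones, which refold damaged proteins, 3 had a lower and 0 a higher response, with a median difference of -0.32. Hspa1b, the stress-inducible Hsp70 (chr17:34956436-34959238), had 91.1 FPKM in Scr_300 and 231 in Scr_600, against 52.3 in Nfat5-KO_300 and 42.5 in Nfat5-KO_600. Its near-identical neighbour Hspa1a had 0.439, 4.54, 0.220 and 0.175 FPKM in the same order, with a difference of -3.32. Reads of this pair can be assigned to either copy, so the split between them is uncertain, but both were higher at 600 mosmol/kg in Scr cells only. Hspa4l, an HSP110 member, was 2.84-fold higher in Scr and 1.33-fold higher in Nfat5-KO cells, and Hsph1 lay just under the threshold (-0.99). None of 14 small heat shock proteins and cochaperones passed it, with a median difference of -0.23. Their member Cryab, the alpha-crystallin B chain, had 144 and 256 FPKM in Scr and 149 and 157 FPKM in Nfat5-KO cells, a difference of -0.75.

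Among 11 potassium channels and subunits of the sodium pump, which drive salt and potassium transport, 4 had a lower and 0 a higher response (median -0.50). Without a filter on low values this median was -0.037. Kcnj1 reached 0.5 FPKM in Scr_600 only, so that the filter itself favoured a lower response for it. Fxyd2, the gamma subunit of the sodium pump (chr9:45399669-45410278), had 0.0877 FPKM in Scr_300 and 10.7 in Scr_600, but 0.0095 in Nfat5-KO_300 and 0.552 in Nfat5-KO_600, a difference of -3.27. Its size depends on the pseudocount: the induction without it was 122-fold in Scr and 57.8-fold in Nfat5-KO cells, and with a pseudocount of 0.01 the difference of Fxyd2 was -1.93. Atp1b1, the beta 1 subunit, had 101 and 198 FPKM in Scr and 79.3 and 76.6 FPKM in Nfat5-KO cells (-1.03). Kcnj1, which encodes the potassium channel ROMK, was listed at 0 at 300 mosmol/kg in both genotypes and had 0.725 FPKM in Scr_600 and 0.074 in Nfat5-KO_600, from about 180 and 34.2 reads. Kcnj16, a subunit of inward rectifier channels, had 0.152 and 5.36 FPKM in Scr and 0.0143 and 0.526 FPKM in Nfat5-KO cells. Its difference of -1.99 rests on the pseudocount: without it the induction was 35.3-fold in Scr and 36.8-fold in Nfat5-KO cells, and with a pseudocount of 0.01 the difference was -0.59. With a pseudocount of 1 the difference of Kcnj1 was -0.68.

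Water and sodium channel genes and their regulators went both ways (14 tested, 3 lower, 2 higher, median 0.33). Aqp1, a water channel (chr6:55336432-55348555), had 23.6 FPKM in Scr_300 and 318 in Scr_600, against 0.653 and 3.51 FPKM in Nfat5-KO cells. It was thus far lower in Nfat5-KO cells at both osmolalities and its induction was 13.5-fold in Scr and 5.38-fold in Nfat5-KO cells. Sgk1, a kinase that raises sodium channel activity (chr10:21882184-21999903), had 0.262 and 4.28 FPKM in Scr and 0.444 and 0.513 FPKM in Nfat5-KO cells, a difference of -3.42. Prkar2b, a regulatory subunit of protein kinase A, also belonged to the lower side (-1.02). On the other side, Scnn1a, the alpha subunit of the epithelial sodium channel, had 2.95 and 1.31 FPKM in Scr and 3.56 and 7.03 FPKM in Nfat5-KO cells, a difference of 2.07. Aqp6, a water channel of intercalated cells, had 0.139 and 1.08 FPKM in Scr and 0.101 and 3.53 FPKM in Nfat5-KO cells (1.87). Under the threshold lay Hsd11b2, which inactivates glucocorticoids in principal cells, at 0.97. The 13 principal cell markers, which include Scnn1a, had a summed level of 50.7 FPKM in Scr_300 and 34.8 in Scr_600. In Nfat5-KO_300 and Nfat5-KO_600 the sum was 69.6 and 100.4 FPKM. Most of it came from Tfcp2l1, with 40.6, 25.1, 48.9 and 53.4 FPKM in the same order of groups. Gata3 added 3.41, 4.33, 11.8 and 30.04 FPKM. The sum therefore does not describe the markers as a group, of which 7 were under 0.5 FPKM throughout. Kcnj1 did not follow it, with 0.725 FPKM in Scr_600 and 0.074 in Nfat5-KO_600. The part of principal cell character in the channel values was not tested.

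The transcript with the lowest difference of all 944 genes was Ranbp3l (chr15:8967949-9067335), which is related to Ran-binding proteins. It was listed at 0 in Scr_300, had 3.53 FPKM in Scr_600, and 0.0012 and 0.0127 FPKM in Nfat5-KO cells, a difference of -5.03 from about 1799 reads in Scr_600 and 12.1 in Nfat5-KO_600. Rnf183, a ubiquitin ligase of the kidney, had 0.525 and 7.68 FPKM in Scr and 0.694 and 1.32 FPKM in Nfat5-KO cells (-2.80). Arc, an immediate early gene, had 3.43 and 22.2 FPKM in Scr and 7.27 and 4.61 FPKM in Nfat5-KO cells (-3.31). Lifr, the receptor of leukemia inhibitory factor, had 0.0842 and 1.1 FPKM in Scr, was listed at 0 in Nfat5-KO_300 and had 0.013 FPKM in Nfat5-KO_600 (-2.53, and -0.94 with a pseudocount of 1). In each of these genes Scr_600 had the highest level of the 4 groups. Among the most abundant genes of the class, Olfm4, a secreted glycoprotein, had 149.97 and 400.3 FPKM in Scr and 64.1 and 46.9 FPKM in Nfat5-KO cells. The mucin Muc1 was 3.74-fold higher at 600 mosmol/kg in Scr and 1.3-fold in Nfat5-KO cells. Cldn4, a claudin of the collecting duct tight junction, had 66.0 and 148 FPKM in Scr and 63.8 and 42.5 FPKM in Nfat5-KO cells (-1.75). It was the only one of 18 claudin and tight junction genes beyond the threshold (list median -0.18), and Cldn8 had 0.291 and 0.798 FPKM in Scr and 3.71 and 10.9 FPKM in Nfat5-KO cells, with like responses in both (0.34).

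Slco4a1, an organic anion transporter, had 3.72 and 46.2 FPKM in Scr and 1.01 and 4.77 FPKM in Nfat5-KO cells (-1.46). Inmt, a methyltransferase of indoleamines, had 7.54 and 249 FPKM in Scr and 3.49 and 40.8 FPKM in Nfat5-KO cells (-1.51). The phosphate and organic anion transporter Slc17a1 had 0.0066 and 0.785 FPKM in Scr and 0.0106 and 0.031 FPKM in Nfat5-KO cells (-2.81, and -0.80 with a pseudocount of 1). Of the 16 solute carriers of organic anions and amino acids, Slco4a1 and Slc17a1 had a lower and Slco2a1, a prostaglandin transporter, a higher response (1.02), with a median of -0.39. Without a filter on low values this median was -0.079. Slc17a1 reached 0.5 FPKM in Scr_600 only. Foxq1, a forkhead factor, had 1.33 and 11.7 FPKM in Scr and 0.794 and 1.69 FPKM in Nfat5-KO cells (-2.05). It was 1 of 19 kidney epithelial transcription factors with a lower response, 2 had a higher one, and Pax2 lay just under the threshold (-0.94). The list median was -0.21, and -0.0061 without a filter on low values. Meox2, Adgrf1, Gsdmc2, Slc6a18 and Aqp2, also named in the study for these cells, stayed under 0.5 FPKM in every group and were not tested.

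The interferon response genes, which limit viral replication, were induced more in Scr than in Nfat5-KO cells as a group. Of 28 tested, 8 had a lower and 0 a higher response in Nfat5-KO cells and 25 had a difference below 0. Their median response was 1.40 in Scr and 0.43 in Nfat5-KO cells and their median difference -0.64, while 51.98% of all genes were below 0 with a median of -0.01. Isg15, a ubiquitin-like modifier, had 4.09 and 14 FPKM in Scr and 7.70 and 10.3 FPKM in Nfat5-KO cells. Oas1a, which makes oligoadenylates upon sensing of double-stranded RNA, had 3.27 and 9.11 FPKM in Scr and 3.02 and 2.59 FPKM in Nfat5-KO cells. The remaining 6 were Oasl2, Usp18, Ifi44, Xaf1 and the guanylate-binding proteins Gbp2 and Gbp3, all under 2 FPKM in every group. With a pseudocount of 1 all 6 were inside the threshold (-0.50 to -0.89). All of them except Usp18 reached 0.5 FPKM in Scr_600 only, so that the filter itself favoured a lower response for them. Of the 4 immune markers, Ptprc, Cd3e and Itgam were at or under 0.0224 FPKM in every group, while Cd68 had 2.62 and 1.84 FPKM in Scr and 1.8 and 1.41 FPKM in Nfat5-KO cells. The part of these markers in the interferon values was not tested.

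Chemokines and inflammation genes had a median of -0.82 over 23 genes, with 9 lower and 1 higher. This median was -0.57 with a pseudocount of 1 and -0.40 without a filter on low values. Their median response was 0.36 in Scr and -0.47 in Nfat5-KO cells. Ccl2, which attracts monocytes, had 0.640 and 4.52 FPKM in Scr and 0.0712 and 0.0129 FPKM in Nfat5-KO cells (-3.24). The other 4 chemokines among these 9 genes did not reach 2-fold in Scr and were repressed in Nfat5-KO cells. Cxcl5, which attracts neutrophils, had 428 and 550.0 FPKM in Scr and 429 and 213 FPKM in Nfat5-KO cells (-1.37). Cxcl1 had 25.5 and 19.2 FPKM in Scr and 20.7 and 5.31 FPKM in Nfat5-KO cells, and Cxcl2 had 16.7 and 14.7 against 11.3 and 3.41 FPKM. These chemokines were therefore closer between the genotypes under isotonic than under hypertonic conditions, where Nfat5-KO cells had less. Ccl20, which attracts lymphocytes and dendritic cells, belonged to the same class (-2.25). Ptgs2, the inducible cyclooxygenase, was higher in Nfat5-KO_300 (23.4 FPKM) than in Scr_300 (6.41) and had 13.7 FPKM in Scr_600 and 15.0 in Nfat5-KO_600. The other lower genes were Il1a, Csf1 and the iron-binding lipocalin Lcn2 (105 and 195 FPKM in Scr, 77.9 and 63.1 in Nfat5-KO cells). Il33, an alarmin, was the gene with a higher response, from 7.43 to 2.63 FPKM in Scr and from 1.27 to 1.82 FPKM in Nfat5-KO cells.

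Ppbp, a platelet chemokine, followed Serpinb9 in the size of the difference among genes with a repression gained that reached 2 FPKM, with 289 and 184 FPKM in Scr and 345 and 38.4 FPKM in Nfat5-KO cells (-2.51, chr5:90768518-90770063). It lies with Cxcl5, Cxcl1 and Cxcl2 in a chemokine cluster, and these 4 were neighbours among the genes tested (chr5:90759360-90905938). In general, of 410 placed genes with a lower response 80 (19.5%) had another such gene as a direct neighbour among the genes tested, compared to 5.51% of the genes that are no members. For the higher response it was 45 of 514 (8.75%), compared to 7.48%. On chromosome 15 (chr15:74669083-74753046), 6 neighbours had a lower response, of which Arc, Psca, Them6, Lypd2 and Lynx1 had lost an induction and Jrk was under 2-fold in both genotypes. Psca, a surface antigen of the Ly6 family like Lypd2 and Lynx1, had 23.9 and 82.3 FPKM in Scr and 37.6 and 21.8 FPKM in Nfat5-KO cells. On chromosome 13 (chr13:32965209-33041884), the serpins Serpinb6b, Serpinb9 and Serpinb9b stood together, with Serpinb9, an inhibitor of granzyme B, at 6.72 and 12.5 FPKM in Scr and 19.5 and 4.70 FPKM in Nfat5-KO cells (-2.92). The other stretches of at least 3 genes were Oas1b, Oas1g and Oas1a, Gm8696, Hspa1b and Hspa1a, and Fam107a, Oit1 and 4930452B06Rik on the lower side, and Krt88, Krt5 and Krt4, Clmn, Gm28875 and Syne3, and Sort1, Psrc1 and Celsr2 on the higher side. These stretches were chosen after their values were seen, and near-identical neighbours such as the Oas1 genes can share reads.

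**Figure D3:**
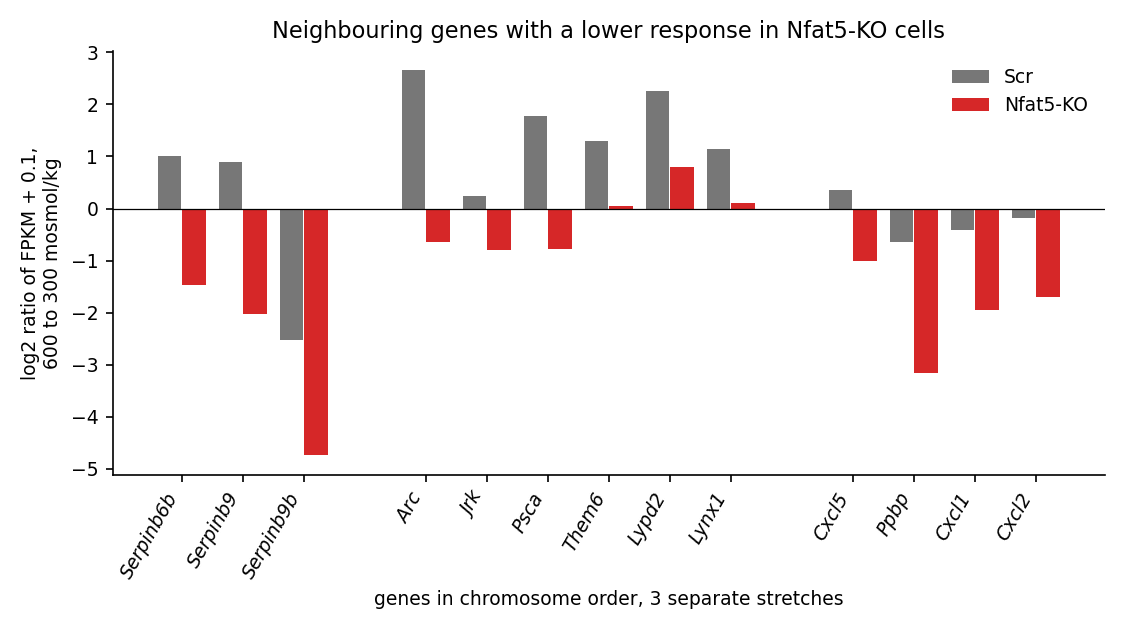
Hypertonic response (log2 ratio of FPKM + 0.1, 600 to 300 mosmol/kg) of the genes of 3 stretches of neighbouring members on chromosomes 13, 15 and 5, with grey bars for Scr and red bars for Nfat5-KO cells. In all 13 genes the red bar ends below the grey bar, by 1.03 (Lynx1) to 3.31 (Arc).

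The 2 plasminogen activators, secreted serine proteases that start fibrinolysis, had a lower response in Nfat5-KO cells, 1 as a weaker induction and 1 as a repression. Plat, tissue plasminogen activator, had 0.535 and 6.57 FPKM in Scr and 0.533 and 2.25 FPKM in Nfat5-KO cells (-1.5). Plau, urokinase, had 122 and 61.4 FPKM in Scr and 149 and 33.3 FPKM in Nfat5-KO cells (-1.17), and the urokinase receptor Plaur had -1.18. Prss35 had 0.0177 and 3.91 FPKM in Scr and 0.0146 and 1.57 FPKM in Nfat5-KO cells (-1.22, and -0.93 with a pseudocount of 1). Of 20 serine proteases and inhibitors 6 were lower, among them Serpinb6b and Serpinb9 as well as these 4, and 2 were higher (Tmprss4 and Slpi), with a median of -0.28. Of 18 genes of IGF, TGF-beta and BMP signalling 1 was lower and 0 were higher, with a median of 0.15.

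Of 25 AP-1, EGR and immediate early genes, 5 were lower and 2 higher (median -0.36). Dusp6, a phosphatase that inactivates ERK, had 10.2 and 58.7 FPKM in Scr and 7.70 and 10.3 FPKM in Nfat5-KO cells (-2.10). Fosl1, an AP-1 subunit, had 3.91 and 2.78 FPKM in Scr and 11.5 and 3.46 FPKM in Nfat5-KO cells (-1.23). Dusp1, Egr1 and Cyr61 were close to the threshold (-1.09, -1.01 and -1.04), and inside it with a pseudocount of 1. The higher genes were Dusp4 (1.19) and Klf2 (1.5). Among 18 YAP and SRF targets and caveolins, 3 were lower and 1 higher (median -0.46). Thbs1, thrombospondin 1, had 15.0 and 95 FPKM in Scr and 30.3 and 45.0 FPKM in Nfat5-KO cells (-2.09), and the tropomyosin Tpm1 had 117 and 155 against 82.2 and 40.9 FPKM (-1.41). A second tropomyosin, Tpm2, had the opposite sign (1.8), at levels of 1.42 to 3.54 FPKM.

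In the list of tubular injury and epithelial markers (22 tested, 6 lower, 2 higher, median -0.31), Anxa1, an annexin that restrains inflammation, had 242 and 275 FPKM in Scr and 128 and 42.6 FPKM in Nfat5-KO cells (-1.77). It was thus flat in Scr cells. The hyaluronan receptor Cd44 was repressed in both genotypes, from 6.26 to 2.91 FPKM in Scr and from 12.1 to 2.11 FPKM in Nfat5-KO cells. Such a stronger repression was also seen for Timp1, an inhibitor of matrix proteases, with 16.1 and 4.68 FPKM in Scr and 30.9 and 4.43 FPKM in Nfat5-KO cells, and for the cornified envelope gene Sprr2e, with 8.01 and 3.33 against 17.0 and 2.30 FPKM. In these 3 genes the Nfat5-KO level was higher at 300 mosmol/kg and under the Scr level at 600. Over the class of 12 genes, the median log2 ratio of Nfat5-KO to Scr was 0.94 at 300 and -0.48 at 600 mosmol/kg. Timp1 and the basement membrane collagen Col4a4 (1.25) were the members in the 23 genes of extracellular matrix and integrins, 1 on each side with a list median of -0.27.

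Repression lost was found for 90 genes. Krt5, a keratin of basal epithelial cells (chr15:101707070-101712898), had 8.51 and 0.718 FPKM in Scr and 2.22 and 3.56 FPKM in Nfat5-KO cells, a difference of 4.05. Its relative Krt4 went from 2.45 to 0.400 FPKM in Scr and from 0.884 to 1.92 FPKM in Nfat5-KO cells (3.39). Compared to Scr, both keratins were lower in the knockout at 300 and higher at 600 mosmol/kg. Krt5 overlaps a predicted gene on the opposite strand. Of 11 keratins tested 3 were higher and 1 lower (median -0.33), and the third of the higher ones, Krt16, had a difference of -0.22 with a pseudocount of 1 instead of 1.04. Krt23, the lower one, reached 1.54 FPKM in Scr_600 and 0.0811 in Nfat5-KO_600. Gabrp, a subunit of the GABA-A receptor, had 52.8 and 11 FPKM in Scr and 6.94 and 5.68 FPKM in Nfat5-KO cells (1.97), so that the lost repression came with an already low isotonic level. Scara5, a ferritin receptor, had 3.66 and 0.488 FPKM in Scr and 1.00 and 1.59 FPKM in Nfat5-KO cells (3.29). Clu, the secreted chaperone clusterin, had 19.8 and 7.87 FPKM in Scr and 8.15 and 8.09 FPKM in Nfat5-KO cells (1.31). Over the class, the median log2 ratio of Nfat5-KO to Scr was -0.82 at 300 and 0.83 at 600 mosmol/kg.

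Some enzymes that detoxify reactive compounds were repressed in Scr but not in Nfat5-KO cells. They are named singly, as members with a large difference or from the lists, and not as a group. Gsta4, a glutathione transferase for lipid aldehydes, had 9.48 and 3.90 FPKM in Scr and 7.67 and 14.2 FPKM in Nfat5-KO cells (2.14). Ephx1, microsomal epoxide hydrolase, had 7.74 and 3.47 FPKM in Scr and 6.98 and 14.9 FPKM in Nfat5-KO cells (2.22). Aldh3a1, an aldehyde dehydrogenase, had 0.660 and 0.0359 FPKM in Scr and 0.153 and 0.600 FPKM in Nfat5-KO cells (3.95). The conjugate exporter Abcc3 (2.09), the cytochrome Cyp2s1 (2.25) and the microsomal transferase Mgst1 (2.39) belonged to the same side. Mgst1 had 2.30 and 0.697 FPKM in Scr but 0.0684 and 0.193 FPKM in Nfat5-KO cells, from about 17.0 and 53.9 reads. It was thus lower in Nfat5-KO cells at both osmolalities. Of 18 retinoid, aldehyde and alcohol dehydrogenases 5 were higher and 1, Akr1b8, lower (median 0.21). In the list of 24 antioxidant and glutathione genes 3 were higher and 1 lower (median 0.08). Here Gclc, which catalyses the rate-limiting step of glutathione synthesis, had 13.6 and 16.3 FPKM in Scr and 17.2 and 42.6 FPKM in Nfat5-KO cells (1.04), while the quinone reductase Nqo1 had 7.84 and 41.5 against 11.8 and 20.4 FPKM (-1.61). Cbs, cystathionine beta-synthase (chr17:31608894-31637238), had the highest difference of all 944 genes, with 1.46 and 0.281 FPKM in Scr and 0.498 and 5.02 FPKM in Nfat5-KO cells (5.13).

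The 245 genes with an induction gained included 147 protein-coding genes (60%), compared to 81.4% protein-coding among all genes tested. Gstt1, another glutathione transferase, had 4.29 and 2.49 FPKM in Scr and 0.574 and 5.01 FPKM in Nfat5-KO cells (3.68). Trp53inp1, a p53 target that takes part in autophagy (chr4:11156431-11174379), had 1.40 and 1.23 FPKM in Scr and 1.45 and 7.66 FPKM in Nfat5-KO cells (2.50), so that the genotypes were alike at 300 mosmol/kg. It was joined by Ccng1 (1.19) and the death receptor Fas (1.63) on the higher side of 21 p53 targets, of which 0 were lower and 16 had a difference above 0 (median 0.16). Mdm2, the ubiquitin ligase of p53, lay under the threshold (0.83), with 12.4 and 14 FPKM in Scr and 14.6 and 29.4 FPKM in Nfat5-KO cells. Gata3, a transcription factor of the collecting duct, had 3.41 and 4.33 FPKM in Scr and 11.8 and 30.04 FPKM in Nfat5-KO cells (1.00), which made it higher in Nfat5-KO cells at both osmolalities. The histone genes Hist2h3c2 (1.07 and 1.69 against 1.01 and 8.42 FPKM) and Hist1h2bb also gained an induction, while the 17 genes of the histone list had a median of -0.01 with 1 lower and 1 higher. Histone genes and glutathione transferases have close copies, between which reads may have been split.

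Of the genes induced more strongly in Nfat5-KO cells, Lbp, which binds bacterial lipopolysaccharide, had 1.82 and 4.46 FPKM in Scr and 2.00 and 12.7 FPKM in Nfat5-KO cells (1.37). Dhrs3, which reduces retinal to retinol, had 5.61 and 12.5 FPKM in Scr and 2.17 and 12.7 FPKM in Nfat5-KO cells (1.35). The latter thus reached the same level from a lower start. The calcium-binding S100g had 0.807 and 1.82 against 0.114 and 2.81 FPKM (2.69). The clock genes Per2, Nr1d2 and Dbp had a higher response (1.28, 1.23 and 1.34) without reaching 2-fold in either genotype, out of 16 tested with 0 lower and a median of 0.14. Small opposite shifts of this kind made up 210 of the 944 genes, such as Rhob (56.6 and 38.1 FPKM in Scr, 52.8 and 80.9 in Nfat5-KO cells) and, on the lower side, the serine synthesis enzyme Psat1 (110 and 139 FPKM in Scr, 73.4 and 42.4 in Nfat5-KO cells).

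Some gene groups were shifted as a whole with few members beyond the threshold. All 40 ribosome biogenesis genes had a difference below 0. Their median was -0.61, with a response of -0.17 in Scr and -0.77 in Nfat5-KO cells, and only Rrp9 (-1.07) was at or below -1. Cholesterol and fatty acid synthesis was alike, with 27 of 29 genes below 0 and a median of -0.61, with 2 genes beyond the threshold, among them Hsd17b7 (-1.03). Aminoacyl-tRNA synthetases and ATF4 targets had 2 lower (Psat1 and Nupr1) and 2 higher genes (Atf5 and Vldlr) of 27 and a median of -0.41. Of 19 glycolysis genes Ldha, lactate dehydrogenase A, was lower, with 356 and 283 FPKM in Scr and 258 and 98 FPKM in Nfat5-KO cells, and the list median was -0.29. Adm and Ddit4 were lower among 18 other hypoxia genes (median -0.24), and Xbp1 was the only member among 19 genes of the unfolded protein response (median -0.09). The 29 DNA replication genes (median -0.08) and the 28 mitosis genes (median 0.07) had 0 members. Over the 30 lists, 604 genes were tested, of which 66 were lower and 35 higher, compared to 3.16% and 3.88% of all genes tested.

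**Figure D4:**
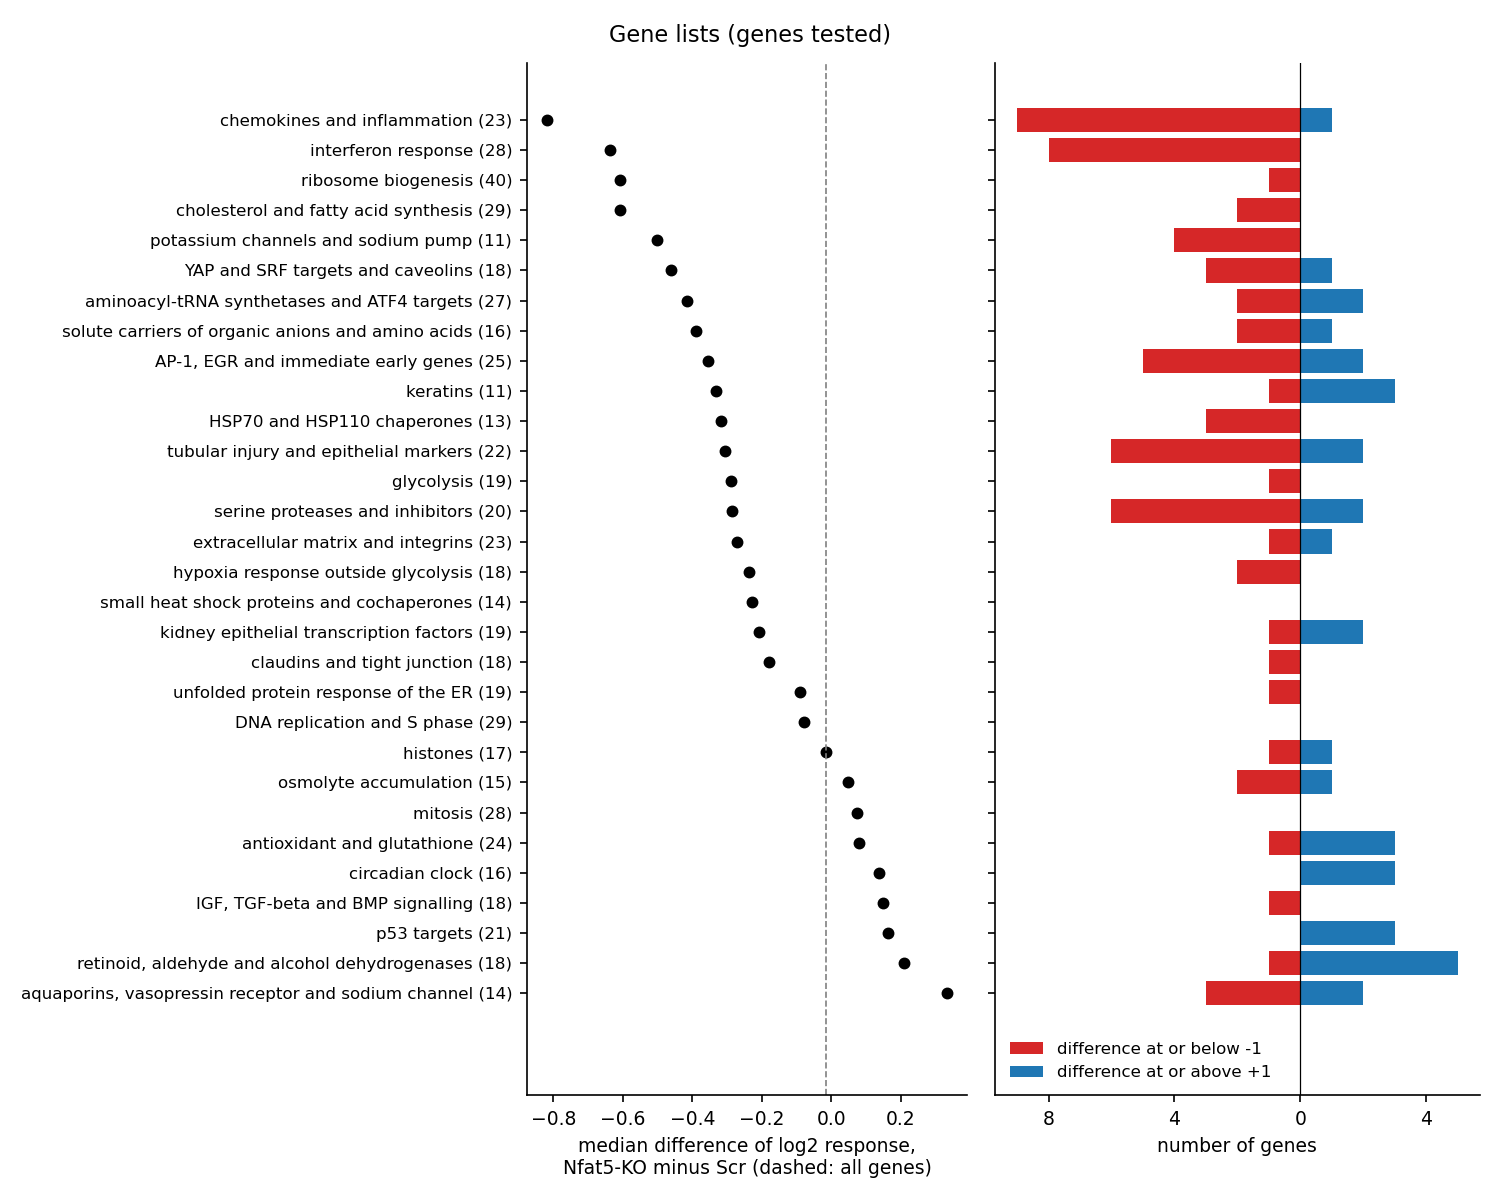
Left, the median difference of the hypertonic response (Nfat5-KO minus Scr, log2) of each gene list, with the number of genes tested in brackets and a dashed line at the median of all genes (-0.01). Right, the number of genes with a difference at or below -1 (red, to the left) and at or above +1 (blue, to the right), which is largest on the lower side for chemokines and inflammation (9) and interferon response (8) and on the higher side for the dehydrogenases (5).

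The share of genes in the set was larger the fewer reads stood behind a gene. Of genes with under 20 approximate reads in their highest group 50.3% were members, compared to 18.8% from 20 to under 100 reads, 11.6% up to 1000, 3.83% up to 10000 and 2.05% from 10000 reads. Short RNA genes stood out in the same way. Of 439 genes for miRNA, snoRNA, snRNA, scaRNA or misc_RNA, 189 (43.1%) were members, with a median of 11.1 reads in the highest group, and 158 of the 189 lie inside a protein-coding gene. The 87 miRNA genes had a median of 8.03 reads, so that a difference of a few reads passed the threshold, and their values are no measure of mature miRNA. Protein-coding genes made up 538 members, 4.93% of the 10917 tested, with a median of 1335 reads. When genes under 20 reads were left out, 736 members remained, and without the short RNA genes 755.

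**Figure D5:**
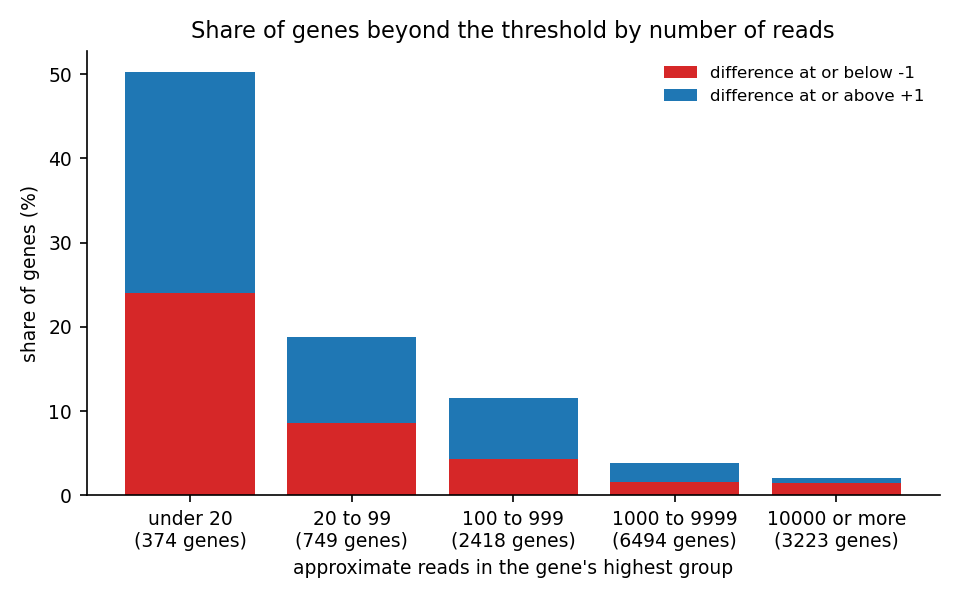
Share of genes tested (%) with a difference at or below -1 (red) or at or above +1 (blue, stacked on top), by the approximate number of reads in the gene's highest group, with the number of genes under each bar. The share falls from 50.3% under 20 reads to 2.05% at 10000 reads or more.

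The threshold does not mark a gap. Just inside it lay Gstm1 (91.3 and 172 FPKM in Scr, 94.3 and 355 in Nfat5-KO cells) and Mfap3l on the higher side and Gm15267 and Trac on the lower side. Just outside lay Gm11615 and Sh2d3c (1.41 and 1.95 FPKM in Scr, 1.05 and 3.02 in Nfat5-KO cells) on the higher side and Lif (5.70 and 6.20 FPKM in Scr, 7.74 and 4.17 in Nfat5-KO cells) and 2310068J16Rik on the lower side.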

How the data were processed

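RNA was sequenced from mpkCCD cells in 12 libraries (NEBNext Ultra). Per the methods and the submitters' processing notes, the authors mapped reads to GRCm38 (mm10) with HISAT2, counted them per gene with HTSeq and scaled them by gene length and mapped reads. The deposited FPKM values hold 1 column per group. How libraries were combined and the annotation release are not given in the sources used here, nor whether counting used strand, so overlapping and antisense genes may share reads. Rows without a value or symbol (2436 of 54839), 311 exact duplicates and 37 symbols with different rows were left out.

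Responses, differences and classes were calculated with Python 3.11.15, numpy 2.4.6 and pandas 2.3.3, and tested on simulated data. Gene models were GENCODE M21 (13258 of 13414 genes matched by symbol), and approximate reads are FPKM times exon length divided by the smallest step. With 1 value per group no test was planned or run, and no interval or p-value was calculated. Other pseudocounts, filters on low values, scalings and class thresholds were tried as alternatives.

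Genes named were the 8 with the largest difference (at least 2 FPKM in a group) and the 4 with the highest FPKM in each class, genes the study names, every member of 30 fixed gene lists (766 genes) and the genes nearest the thresholds. A few list genes inside the threshold, the member Rnf183 and the genes of the neighbouring stretches were named after their values were seen. The members and lists were chosen with earlier results of these data known. A few genes of the lists are not reported here by name.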

Additional observations from a re-analysis of the deposited data

How the results depend on the processing

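No value has a replicate spread, and leaving out a library could not be run because the deposited values hold 1 value per group. No paired analysis was possible because of the same. The settings that moved the counts most concern low values. With a pseudocount of 1 FPKM, 165 genes had a lower and 139 a higher response, and 302 of the 944 genes remained. The classes then held 68 genes with induction lost, 7 with induction weaker, 0 induced in Scr and repressed in Nfat5-KO cells, 39 with repression gained, 2 with repression stronger, 49 in neither on the lower side, 16 with repression lost, 0 with repression weaker, 0 repressed in Scr and induced in Nfat5-KO cells, 48 with induction gained, 4 with induction stronger and 71 in neither on the higher side. The chemokine median was -0.57, 52 of 194 named genes fell inside the threshold, and Krt16 turned to -0.22. With a pseudocount of 0.01 FPKM, induction weaker held 69 genes, induced in Scr and repressed in Nfat5-KO 13, repression stronger 26, repression weaker 26, repressed in Scr and induced in Nfat5-KO 34 and induction stronger 48, and the keratin median was -0.027. Without a filter on low values, 891 genes were lower and 1258 higher, with 361 in induction lost, 27 induced in Scr and repressed in Nfat5-KO, 232 in repression gained, 213 in neither on the lower side, 280 in repression lost, 49 repressed in Scr and induced in Nfat5-KO, 514 in induction gained and 374 in neither on the higher side. The medians were then -0.037 for potassium channels and sodium pump, -0.079 for solute carriers, -0.40 for chemokines, -0.049 for keratins and -0.0061 for kidney transcription factors. With a mean over the 4 groups of at least 1 FPKM, 228 genes were lower and 235 higher, with 75 in induction lost, 20 in induction weaker, 2 induced in Scr and repressed in Nfat5-KO, 68 in repression gained, 54 in neither on the lower side, 31 in repression lost, 5 in repression weaker, 6 repressed in Scr and induced in Nfat5-KO, 105 in induction gained and 70 in neither on the higher side, and a keratin median of -0.027. With classes set at 1.5-fold, induction weaker held 76, induced in Scr and repressed in Nfat5-KO 54, repression stronger 24, neither on the lower side 2, repressed in Scr and induced in Nfat5-KO 91, induction stronger 49 and neither on the higher side 7 genes. A minimum of reads and leaving out short RNA genes were chosen as settings after seeing the data. With at least 20 approximate reads, 2 genes were induced in Scr and repressed in Nfat5-KO, 58 were in repression lost, 7 in repression weaker and 9 repressed in Scr and induced in Nfat5-KO, and without short RNA genes these were 3, 8 (repression weaker) and 10. Median-of-ratios factors and centring moved no count by over 1.5 times. They took 8 and 1 named genes just inside the threshold, among them Gstm1, Gata3 and Gclc. The causes of these moves were not tested beyond the genes that each setting adds or removes. Depth limits the short RNA genes and genes under 20 reads, of which 50.3% were in the set.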
